A study of Mus musculus with 48 samples.

Results

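Bile acid synthesis and transport were followed through 10 genes in the livers of 48 mice. They were found by symbol among the 29221 genes in the joined count tables, and all 10 were present: the synthesis enzymes Cyp7a1, Cyp8b1, Cyp27a1 and Cyp7b1, the conjugating enzyme Baat, the regulators Nr1h4 and Nr0b2, and the transporters Slc10a1, Abcb11 and Slc51b. Each library was whole-liver RNA of 1 adult mouse, so fewer cells of a type and less RNA per cell cannot be told apart. Every mouse carried a floxed Pparg gene, also in the control groups. The virus given after 16 weeks on diet was AAV8-TBG-Cre, in which the hepatocyte promoter TBG drives Cre recombinase, or AAV8-TBG-null in controls. Male groups, each of 6 mice, were control and labelled knockout on the high fat diet for 34 weeks (HF), and control and labelled knockout on HFCF, which was the high fat diet for 18 weeks and then a high fat, high cholesterol and high fructose diet for 16 weeks. Female groups, each of 4 mice, were control and labelled knockout on a low fat diet for 34 weeks (LF), on HF and on HFCF. The labels describe LF livers as healthy, HF livers as steatotic and HFCF livers as having non-alcoholic steatohepatitis. LF males are not analysed here.

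Hepatocytes make bile acids from cholesterol. In the classic route Cyp7a1 adds the first hydroxyl group and sets the rate, and Cyp8b1 adds the hydroxyl group that makes cholic acid; in the alternative route Cyp27a1 oxidises the side chain and Cyp7b1 hydroxylates the resulting oxysterols. Baat joins the acids to taurine or glycine, Slc10a1 (NTCP) takes them up from blood, Abcb11 (BSEP) exports them into bile, and Slc51b is the beta subunit of a transporter that can return them to blood. Nr1h4 encodes FXR, the nuclear receptor for bile acids, and Nr0b2 encodes SHP, an FXR-induced repressor of Cyp7a1 and Cyp8b1.

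Libraries held 15338239 to 22072884 reads on genes. Pparg itself was higher on average in each labelled-knockout group than in its controls, so those groups are called by their label. On HFCF its ranges did not overlap. Males measured 48.4 to 63.7 CPM (normalised counts scaled by library size) against 26.0 to 39.1 CPM in controls. Females measured 39.1 to 59.3 against 21.7 to 25.2 CPM, and on HF and LF the ranges overlapped. The cause was not tested. The PPARγ-responsive lipid droplet gene Cidec measured 4.49 to 6.35 CPM in HF labelled-knockout males and 113 to 156 CPM in HF control males. Cidec ranges of labelled knockouts and controls also did not overlap in HFCF males (11.3 to 43.9 against 154 to 172 CPM), HF females (2.74 to 6.22 against 6.32 to 56.5 CPM) and HFCF females (4.14 to 16.2 against 42.6 to 79.1 CPM). In LF females it overlapped (4.59 to 7.66 against 4.93 to 9.80 CPM), so neither gene checks the label there. Alb, the plasma albumin gene and a liver marker, measured at least 26613 CPM in every library. Of markers of other tissues, 3 adipose genes summed to at most 0.223 CPM in a library and 2 pancreas genes to at most 1.11 CPM. The sum of 3 intestine genes was 58.4 to 185 CPM, and its source was not tested. Several libraries stood apart from their group in 6 cholangiocyte and 5 stellate cell markers. In HFCF control males, replicate 1 had summed marker levels of 159 and 587 CPM, against 473 to 571 and 1034 to 1138 CPM in the other libraries. In HF control females, replicate 1 had 277 and 836 CPM, against 43.8 to 73.1 and 228 to 358 CPM. In HFCF labelled knockouts, male replicate 6 had the lowest sums of its group, 200 and 577 CPM, and female replicate 1 likewise, with 242 and 649 CPM. Male replicate 3 of the HFCF labelled knockouts had the highest sums of its group, 685 and 1063 CPM. Some of the results that rest on these libraries are also given without them, and others only with them. Males and females carried separate ranges of animal numbers, so sex and cohort cannot be told apart. The labels do not say whether mice of a group shared a cage or litter, and p-values measure the spread between these mice.

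Promoter sequence from RefSeq (GRCm38.p6) was matched for 7 of the 10 members: Cyp27a1, Nr0b2, Abcb11, Slc51b, Cyp8b1, Nr1h4 and Slc10a1, which has 2 listed starts. Cyp7a1, Cyp7b1 and Baat had no entry. The 250 bases before the start are shown for the 4 matched members that were higher together in HF labelled-knockout males (for Slc10a1, the outer start), 5′ to 3′ on the gene's strand, with capitals marking the hexamer AGGTCA or its reverse complement TGACCT, the element that nuclear receptors of this pathway recognise. Cyp27a1 at chr1:74713285-74713534 (plus strand), Nr0b2 at chr4:133553126-133553375 (plus), Slc10a1 at chr12:80968706-80968955 (minus) and Abcb11 at chr2:69342617-69342866 (minus) read as follows.
Cyp27a1: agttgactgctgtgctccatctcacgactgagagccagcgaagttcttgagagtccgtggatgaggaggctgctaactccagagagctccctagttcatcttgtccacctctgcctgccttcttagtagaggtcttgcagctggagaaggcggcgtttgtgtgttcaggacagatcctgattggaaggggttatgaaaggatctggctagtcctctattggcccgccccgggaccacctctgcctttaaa
Nr0b2: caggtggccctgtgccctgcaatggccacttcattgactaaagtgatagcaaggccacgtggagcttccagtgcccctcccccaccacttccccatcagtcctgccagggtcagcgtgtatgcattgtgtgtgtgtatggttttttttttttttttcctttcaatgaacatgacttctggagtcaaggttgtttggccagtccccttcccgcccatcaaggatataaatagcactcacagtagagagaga
Slc10a1: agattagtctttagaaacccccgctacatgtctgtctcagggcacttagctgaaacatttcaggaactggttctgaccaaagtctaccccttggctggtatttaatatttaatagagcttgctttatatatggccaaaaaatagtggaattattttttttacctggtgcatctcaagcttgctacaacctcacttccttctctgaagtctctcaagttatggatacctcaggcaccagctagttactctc
Abcb11: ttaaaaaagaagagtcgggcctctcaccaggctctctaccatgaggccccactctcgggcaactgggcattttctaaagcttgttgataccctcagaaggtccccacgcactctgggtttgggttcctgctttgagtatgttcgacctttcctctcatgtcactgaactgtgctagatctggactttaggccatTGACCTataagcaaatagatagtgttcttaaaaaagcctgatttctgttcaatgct
Of these 4 windows, the hexamer occurred in that of Abcb11, 56 to 51 bases before the start. It also occurred in the windows of Slc51b (203 to 198 bases before the start), Nr1h4 (214 to 209) and the inner start of Slc10a1 (87 to 82), and not in that of Cyp8b1. Over all 32851 promoter windows of this length, 14.0% held the hexamer on either strand. No member window held an exact copy of the inverted repeat spaced by 1 base, AGGTCANTGACCT, the element known for FXR with RXR. Exact copies were found in 2 of all windows. The same holds for the direct repeat spaced by 1 base (11 windows of all) and for the hexamer preceded by TCA (127 windows, 0.387%). The latter is the site known for the receptor encoded by Nr5a2, and these longer motifs contain the hexamer. The Abcb11 window reads aggccatTGACCT around its hexamer, which differs from the inverted repeat at 1 base. Near matches were not counted, so the lack of an exact copy does not show that a window lacks such an element. A match here is a match of letters.

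Levels per transcript length (FPKM as deposited by the authors) placed the uptake transporter first. The median over 48 libraries was 211 FPKM for Slc10a1 and 177 FPKM for Cyp27a1. Baat at 104, Cyp8b1 at 102 and Abcb11 at 100 FPKM formed a middle rank. Nr1h4 at 59.1 and Cyp7a1 at 45.8 FPKM were lower, and Nr0b2 at 19.6 and Cyp7b1 at 13.3 FPKM lower again. Slc51b had a median of 0.821 FPKM and 1 to 28 reads in a library; the overlapping gene Rasl12 on the other strand had up to 25, and without strand information the reads of both cannot be told apart, so its values are uncertain. Cyp7b1 and Abcb11 also overlap other genes, but these had at most 6 and 14 reads in a library.

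**Figure D1:**
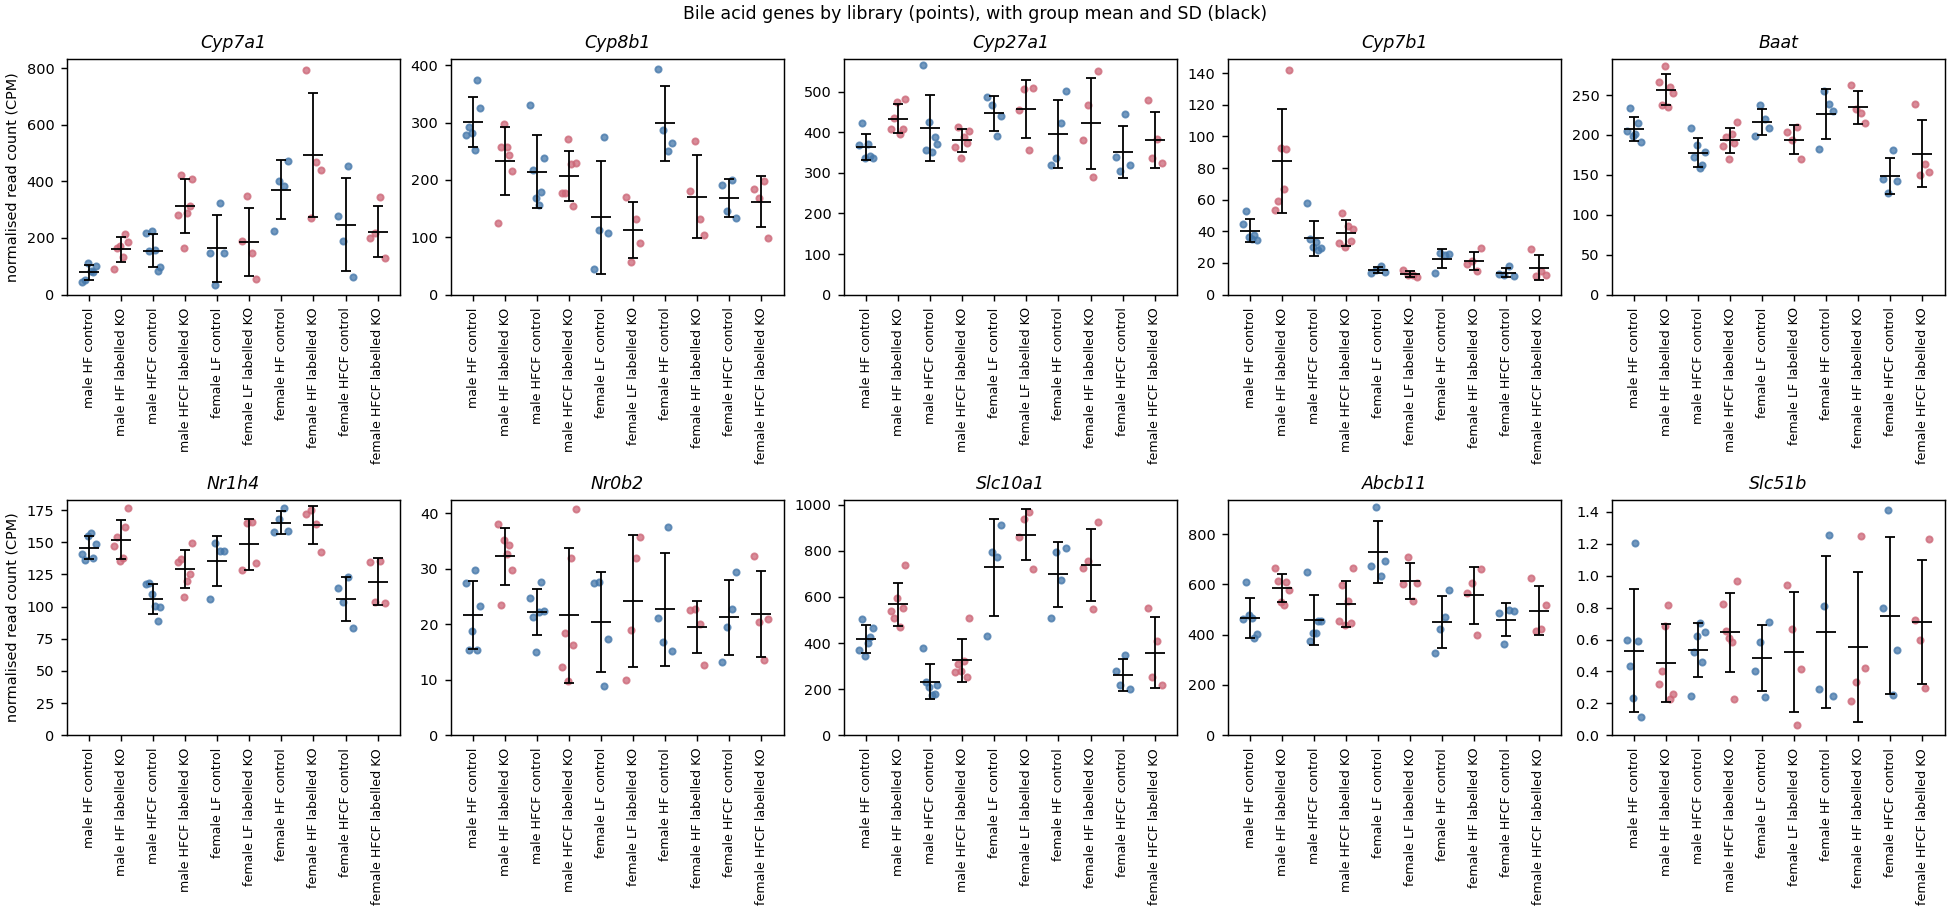
Normalised read count (CPM, vertical axis from 0) of the 10 genes in each library (points), with the mean and SD of each group in black; blue groups are controls and red groups labelled knockouts. Cyp7b1 was highest in HF labelled-knockout males (53.3 to 142 CPM), and Slc10a1 was low in all 4 HFCF groups.

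The members differed in how far they varied between groups. The ratio of the highest to the lowest group mean was 6.50 for Cyp7b1, 6.26 for Cyp7a1, 3.75 for Slc10a1 and 2.68 for Cyp8b1. It was between 1.30 and 1.72 for the other 6, with Cyp27a1 the flattest. Cyp7a1 also varied most within groups among the 9 well-counted members: its median coefficient of variation was 39.1%, against 8.92% for Baat and 11.1% for Nr1h4. In LF control females Cyp7a1 measured 148, 34.2, 323 and 147 CPM in replicates 1 to 4, which is a 9.43-fold span within 1 group.

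Cyp7a1 (ENSMUSG00000028240, GRCm38 chromosome 4, 6265612 to 6275633, minus strand) was lowest in HF control males, at 78.9 CPM on average, and highest on average in HF labelled-knockout females, at 270 to 794 CPM. From low to high the group means ran HF control males, HFCF control males (155), HF labelled-knockout males (160), LF control females (163), LF labelled-knockout females (186), HFCF labelled-knockout females (222), HFCF control females (247), HFCF labelled-knockout males (313), HF control females (371) and HF labelled-knockout females. Each pair of neighbours in that order overlapped between libraries.

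Cyp7b1 (ENSMUSG00000039519, chromosome 3, 18071950 to 18243338, minus strand) was ordered by sex: all 6 female groups averaged 13.0 to 22.7 CPM and all 4 male groups 35.7 to 84.3 CPM. Of its 9 pairs of neighbouring groups 7 overlapped. The exceptions were HF control females against HFCF control males, and HF control against HF labelled-knockout males.

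Slc10a1 (ENSMUSG00000021135, chromosome 12, 80953183 to 80968705, minus strand) was ordered mainly by diet and sex. The 4 HFCF groups averaged 232 to 358 CPM, the HF males 418 and 567 CPM, and the LF and HF females 698 to 871 CPM. Every pair of neighbours in this order overlapped.

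In HF males, 7 of the 9 tested bile acid genes were higher in labelled knockouts than in controls and none was lower. They were the 2 enzymes of largest change, Cyp7a1 and Cyp7b1, the enzymes Cyp27a1 and Baat, the repressor Nr0b2, and both the uptake and the export transporter. Of all 14041 genes tested in this comparison, 18.5% were called, in either direction. The median log2 change of the 9 members was 0.32, against 0.00 for all genes. Slc51b had too few reads to be tested.

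Cyp7a1 measured 46.2, 82.2 and 111 CPM (lowest, median and highest of 6) in HF control males and 89.6, 169 and 213 CPM in HF labelled-knockout males. The groups overlapped, with labelled-knockout replicate 1 within the range of the controls. The difference was 1.01 on the log2 scale (SE 0.22), or 2.02-fold, and the adjusted p by edgeR's quasi-likelihood test was 0.00459. Cyp7b1 measured 34.8, 37.0 and 53.2 CPM in controls and 53.3, 79.4 and 142 CPM in labelled knockouts, which did not overlap. Its difference was 1.06 (SE 0.20, adjusted p 0.00155), and without labelled-knockout replicate 6, the highest library, 0.85. The estimates were thus 2.02-fold for the rate-limiting enzyme of the classic route and 2.08-fold for the oxysterol hydroxylase of the alternative route.

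The other called enzymes moved less. Baat (ENSMUSG00000039653, chromosome 4, 49489422 to 49506557, minus strand) measured 191, 203 and 234 CPM in HF control males and 235, 257 and 287 CPM in labelled knockouts. These ranges did not overlap, and the log2 difference was 0.30 (SE 0.06, adjusted p 0.00398). Cyp27a1 (ENSMUSG00000026170, chromosome 1, 74713574 to 74737892, plus strand) measured 337, 355 and 423 against 395, 422 and 483 CPM. The ranges overlapped, the difference was 0.25 (SE 0.07, adjusted p 0.0232), and the call was lost without control replicate 3, 5 or 6 (0.23, 0.23 and 0.22). Cyp8b1 (ENSMUSG00000050445, chromosome 9, 121914356 to 121916305, minus strand) was the 1 tested member with a negative estimate, -0.38 (SE 0.15, adjusted p 0.104): controls measured 253, 287 and 375 CPM and labelled knockouts 125, 250 and 297 CPM.

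Among regulators, Nr0b2 (ENSMUSG00000037583, chromosome 4, 133553376 to 133556536, plus strand) measured 15.3, 21.0 and 29.9 CPM in HF control males and 23.4, 33.5 and 38.1 CPM in labelled knockouts. The ranges overlapped and the difference was 0.57 (SE 0.16, adjusted p 0.022). This call was lost without control replicate 3 or 5 or labelled-knockout replicate 1 (0.53, 0.49 and 0.52). Nr1h4 (ENSMUSG00000047638, chromosome 10, 89454234 to 89533585, minus strand), the receptor that induces Nr0b2, gave 0.05 (SE 0.07, adjusted p 0.651), with 136 to 157 CPM in controls and 136 to 176 CPM in labelled knockouts.

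Both transporters of the cycle through hepatocytes were higher. Slc10a1 measured 343, 412 and 505 CPM in controls and 469, 547 and 738 CPM in labelled knockouts, overlapping ranges with a difference of 0.43 (SE 0.11, adjusted p 0.0112) and 0.35 without labelled-knockout replicate 6. Abcb11 (ENSMUSG00000027048, chromosome 2, 69238282 to 69342616, minus strand) measured 387, 463 and 610 against 516, 594 and 664 CPM. Control replicate 2 was the overlapping library, and the difference was 0.32 (SE 0.10, adjusted p 0.0344). Abcb11 was still called in 4 of 12 fits with 1 library removed (those without control replicate 2 or labelled-knockout replicate 3, 4 or 6), and its estimate stayed between 0.27 and 0.41; the highest adjusted p was 0.0913, without control replicate 6. With all 4 male groups in 1 fit, Cyp27a1 (0.26), Nr0b2 (0.58), Slc10a1 (0.44) and Abcb11 (0.33) kept their direction and lost the call.

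Hepatocyte markers moved the same way in these males. All 6 of the list (Tat, Serpina1c, Cps1, Alb, Ttr and Apoa1) were called higher, and their summed level was 59000 to 82471 CPM in HF controls and 86558 to 101520 CPM in labelled knockouts. Of 5 stellate cell markers 4 were lower, with sums of 497 to 726 and 345 to 463 CPM. Of all 14041 genes 18.5% were called, 1204 higher and 1387 lower. The part of either cell type in the changes of the bile acid genes was not tested.

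**Figure D2:**
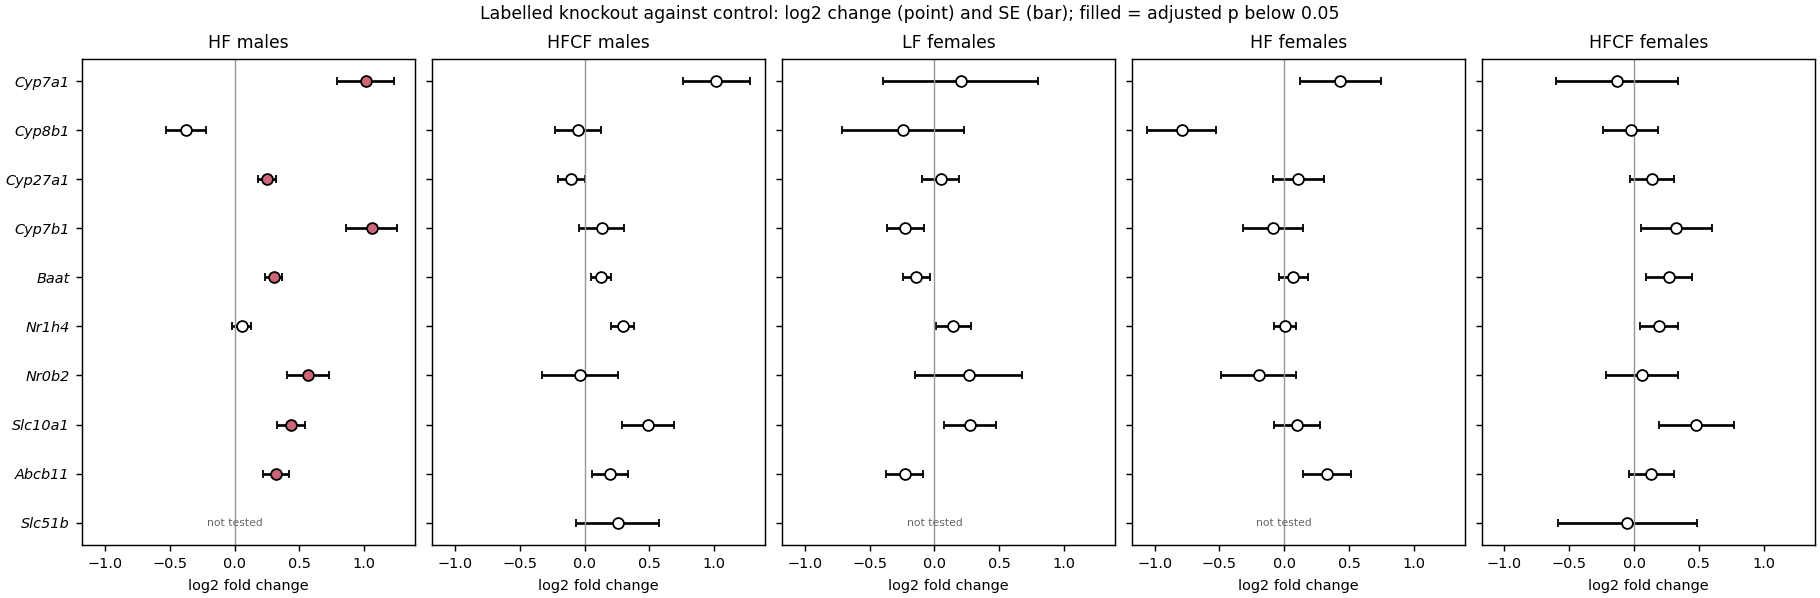
Log2 fold change (horizontal axis) of each gene in labelled knockouts against controls of the same sex and diet, with its SE as a bar; filled points had an adjusted p below 0.05. Filled points, 7 in number, occur in HF males, and open points in the other 4 comparisons.

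On the HFCF diet, males gave 0 calls among the 10 members, where 2.21% of 14685 genes were called. By edgeR 3 members had an unadjusted p under 0.05, as did 2085 of all genes. The DESeq2 Wald test called 2 members. Cyp7a1 differed by 1.02 (SE 0.26), with an adjusted p of 0.0549; the estimate in HF males was 1.01. It measured 81.8, 156 and 225 CPM in HFCF control males and 163, 300 and 423 CPM in labelled knockouts, and the ranges overlapped. Without control replicate 1, which stood apart in its markers, 3 members were called: Cyp7a1 (1.14), Slc10a1 (0.69) and Nr1h4 (0.33). Without labelled-knockout replicate 3, which also stood apart in its markers, Cyp7a1 (1.15) and Nr1h4 (0.34) were called. That control library had 380 CPM of Slc10a1, while the others had 173 to 233 CPM and the labelled knockouts 253 to 510 CPM. With all libraries, the Slc10a1 difference was 0.49 (SE 0.20, adjusted p 0.262). Labelled-knockout replicate 6, which also stood apart in its markers, was the highest for Slc10a1 (509.8 CPM, next 323 CPM). Without that library no member was called.

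Cyp7b1, which was called in HF males, gave 0.13 (SE 0.17, adjusted p 0.791) on HFCF, with 28.3 to 57.7 CPM in controls and 30.3 to 51.7 CPM in labelled knockouts. The test of that difference between diets, the interaction of label and diet in males, was -0.94 (SE 0.28, adjusted p 0.0789). No member was called in this interaction by edgeR, and 1.56% of 15096 genes were called. An unadjusted p under 0.05 was reached by 2 members and by 2574 of all genes. Cyp7b1 was called by the DESeq2 Wald test. For Cyp7a1 the interaction was -0.01 (SE 0.36). In females the interaction of label and diet gave 0 called members and 0 with an unadjusted p under 0.05 by edgeR. Of all 15445 genes 0.0% were called, and 667 had an unadjusted p under 0.05.

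In females, no bile acid gene was called between labelled knockouts and controls. The background was 0.0% of 14285 genes on LF, 0.0% of 14128 on HF and 0.0534% of 14980 on HFCF. The DESeq2 Wald test called 0 members in each. By edgeR, 355, 1135 and 1340 of these genes had an unadjusted p under 0.05, and so did 0, 1 and 0 members. The 1 member was Cyp8b1 on HF, at 393, 287, 250 and 264 CPM in controls and 180, 268, 131 and 105 CPM in labelled knockouts. Labelled-knockout replicate 2 lay among the controls, and the difference was -0.79 (SE 0.27, adjusted p 0.584). Cyp7a1 differed by 0.20 (SE 0.60) on LF, 0.43 (SE 0.31) on HF and -0.13 (SE 0.47) on HFCF, and these errors are larger than the SE of 0.22 in HF males.

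The difference in label effect between sexes was also tested itself. On HF, 0 members were called in the interaction of label and sex by edgeR (background 0.0% of 15024 genes). An unadjusted p under 0.05 was found for 2 members and for 1590 of all genes. Cyp7b1 had the largest estimate, 1.16 (SE 0.34, adjusted p 0.321), where a positive value means a larger increase in males. Without HF control female replicate 1 it was 1.33 and called. On HFCF 0 members were called as well (0.0% of 15673 genes), with Cyp7a1 at 1.15 (SE 0.55, adjusted p 0.514). There 1 member and 1515 of all genes had an unadjusted p under 0.05.

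On HFCF, the uptake transporter and the bile acid receptor were lower than on HF in both sexes and with either label. Slc10a1 and Nr1h4 were called lower in all 4 comparisons of HFCF against HF, and Baat in 3 of the 4. Cyp7a1 was called higher in both comparisons of males and was not called by edgeR in females, where the DESeq2 Wald test and the authors' deposited table called it lower in labelled knockouts. Of all genes, 22.3% of 14475 were called in male controls, 41.7% of 14314 in male labelled knockouts, 30.8% of 14701 in female controls and 14.5% of 14650 in female labelled knockouts. The members called were 5, 6, 5 and 2 of 10 in that order. No test compared these shares with those of all genes, and the counts changed with the processing, as given at the end.

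Slc10a1 had the largest decrease of any member in both comparisons of controls. Male controls measured 343, 412 and 505 CPM on HF and 173, 215 and 380 CPM on HFCF, overlapping through HFCF replicate 1, with a log2 difference of -0.84 (SE 0.16, adjusted p 0.00325) and -1.04 without that library. Female controls measured 509, 796, 675 and 812 CPM on HF and 279, 219, 349 and 199 CPM on HFCF. Each HFCF liver lay below each HF liver, and the difference was -1.39 (SE 0.20, adjusted p 0.00546), with -1.51 without HF replicate 1.

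Slc10a1 was also lower on HFCF in labelled knockouts. In males the values were 469, 547 and 738 CPM on HF and 253, 295 and 510 CPM on HFCF, where the HFCF replicate 6 overlapped the HF group (-0.80, SE 0.15, adjusted p 0.000763; -0.95 without it). In females they were 727, 756, 548 and 926 CPM on HF and 554, 254, 409 and 217 CPM on HFCF. There HFCF replicate 1 overlapped HF replicate 3, and the difference was -1.04 (SE 0.28, adjusted p 0.0332). It was still called in 2 of 8 fits with 1 library removed, those without HF replicate 3 or HFCF replicate 1, and estimates over all 8 ran from -1.32 (without HFCF replicate 1) to -0.86.

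Nr1h4 fell by less. Male controls had 136, 145 and 157 CPM on HF and 88.8, 105 and 118 CPM on HFCF, with no overlap (-0.46, SE 0.07, adjusted p 0.00142). Female controls had 158, 168, 176 and 159 CPM on HF and 115, 104, 123 and 83.4 CPM on HFCF, again with no overlap (-0.62, SE 0.12, adjusted p 0.00778). In labelled knockouts the differences were -0.23 in males (SE 0.08, adjusted p 0.0359) and -0.45 in females (SE 0.13, adjusted p 0.0394). Those calls held in 6 of 12 and 1 of 8 fits that left out 1 library, and were lost with at least 10 counts in every library (-0.21) and with no filter (-0.43), respectively. The highest adjusted p was 0.0837 in males, without HFCF replicate 3, and 0.118 in females, without HF replicate 1. The gene's own target Nr0b2 was not called in any of the 4, with estimates of 0.04, -0.58, -0.07 and 0.16; in male labelled knockouts it was called lower without HFCF replicate 6 (-0.84).

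The conjugating enzyme Baat was lower in both comparisons of males and in female controls. Female controls had 182, 255, 239 and 230 CPM on HF and 145, 127, 181 and 142 CPM on HFCF, and HF replicate 1 lay just above the highest HFCF liver (-0.58, SE 0.13, adjusted p 0.0133). Male labelled knockouts had 235, 257 and 287 CPM on HF and 170, 194 and 217 CPM on HFCF, without overlap (-0.40, SE 0.07, adjusted p 0.000303). In male controls Baat differed by -0.21 (SE 0.07, adjusted p 0.0434) and held in 2 of 12 fits that left out 1 library, those without HF replicate 6 or HFCF replicate 1; the highest adjusted p was 0.103. It was lost with no filter (-0.23). In female labelled knockouts it was -0.41 (adjusted p 0.101), and -0.58 and called without HFCF replicate 1; it was also called with all female groups in 1 fit (-0.41).

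Among synthesis enzymes the classic route did not move as 1 unit in control males: Cyp7a1 rose and Cyp8b1 fell. Cyp7a1 went from 46.2, 82.2 and 111 CPM on HF to 81.8, 156 and 225 CPM on HFCF, overlapping ranges with a difference of 0.99 (SE 0.26, adjusted p 0.0147). Cyp8b1 went from 253, 287 and 375 to 156, 198 and 330 CPM (-0.48, SE 0.16, adjusted p 0.0407). That Cyp8b1 call held in 2 of 12 fits that left out 1 library, those without HF replicate 4 or HFCF replicate 1, and was -0.64 without the latter; it was also lost with all 4 male groups in 1 fit (-0.48). In male labelled knockouts Cyp7a1 rose from 89.6, 169 and 213 to 163, 300 and 423 CPM (0.97, SE 0.22, adjusted p 0.00213), and Cyp8b1 gave -0.17 (adjusted p 0.463).

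In females Cyp7a1 had negative estimates on HFCF. Control values were 226, 402, 383 and 474 CPM on HF and 279, 190, 456 and 63.1 CPM on HFCF, which overlapped widely (-0.56, SE 0.48, adjusted p 0.39). Labelled knockouts had 794, 270, 469 and 440 CPM on HF and 201, 216, 344 and 128 CPM on HFCF (-1.15, SE 0.34, adjusted p 0.0501; -1.09 without HFCF replicate 1). With all libraries and the expression filter it missed the threshold by edgeR. It was called without the filter (-1.13), without HF replicate 2 (-1.36) or HFCF replicate 3 (-1.44), by the DESeq2 Wald test (-1.14) and in the authors' deposited table. The sexes' difference in response to HFCF, tested in controls as the interaction of diet and sex, was 1.56 for Cyp7a1 (SE 0.55, adjusted p 0.221). No member was called there by edgeR, and 0.00646% of 15491 genes were called. An unadjusted p under 0.05 was found for 2 members and for 2561 of all genes. Without HF control female replicate 1, Cyp7a1 (1.74) and Baat (0.47) were called.

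Cyp8b1 in female controls fell from 393, 287, 250 and 264 CPM on HF to 192, 145, 200 and 134 CPM on HFCF, without overlap (-0.81, SE 0.18, adjusted p 0.012; -0.64 without HF replicate 1). That call was lost with all 6 female groups in 1 fit (-0.81). Cyp7b1 in the same mice went from 13.9, 26.6, 24.7 and 25.6 to 12.7, 12.6, 17.9 and 11.8 CPM. HF replicate 1 lay among the HFCF livers, and the difference was -0.70 (SE 0.21, adjusted p 0.0327) with it and -0.87 without it. The call was lost without any of the HF replicates 2, 3 and 4 or the HFCF replicates 1, 2 and 5, with estimates between -0.87 and -0.62 over the 8 fits. In male labelled knockouts Cyp7b1 fell from 53.3, 79.4 and 142 to 30.3, 37.7 and 51.7 CPM, without overlap (-1.11, SE 0.21, adjusted p 0.00056; -0.90 without HF replicate 6). Male controls gave -0.17 (adjusted p 0.475), and -0.36 and called without HFCF replicate 1. Female labelled knockouts gave -0.32 (adjusted p 0.501), and -0.67 and called without HFCF replicate 1.

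The remaining members were called in at most 1 of the 4 comparisons. Cyp27a1 was called lower in male labelled knockouts, at -0.19 (SE 0.07, adjusted p 0.0435), a call kept in 4 of 12 fits that left out 1 library with a highest adjusted p of 0.102 and lost under every other filter tried and with all male groups in 1 fit; estimates in the other 3 comparisons were 0.18, -0.14 and -0.14. Abcb11, the bile salt export pump, was called in none, with estimates of -0.02, -0.16, 0.06 and -0.16. Slc51b was tested in all 4 and called in none.

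**Figure D3:**
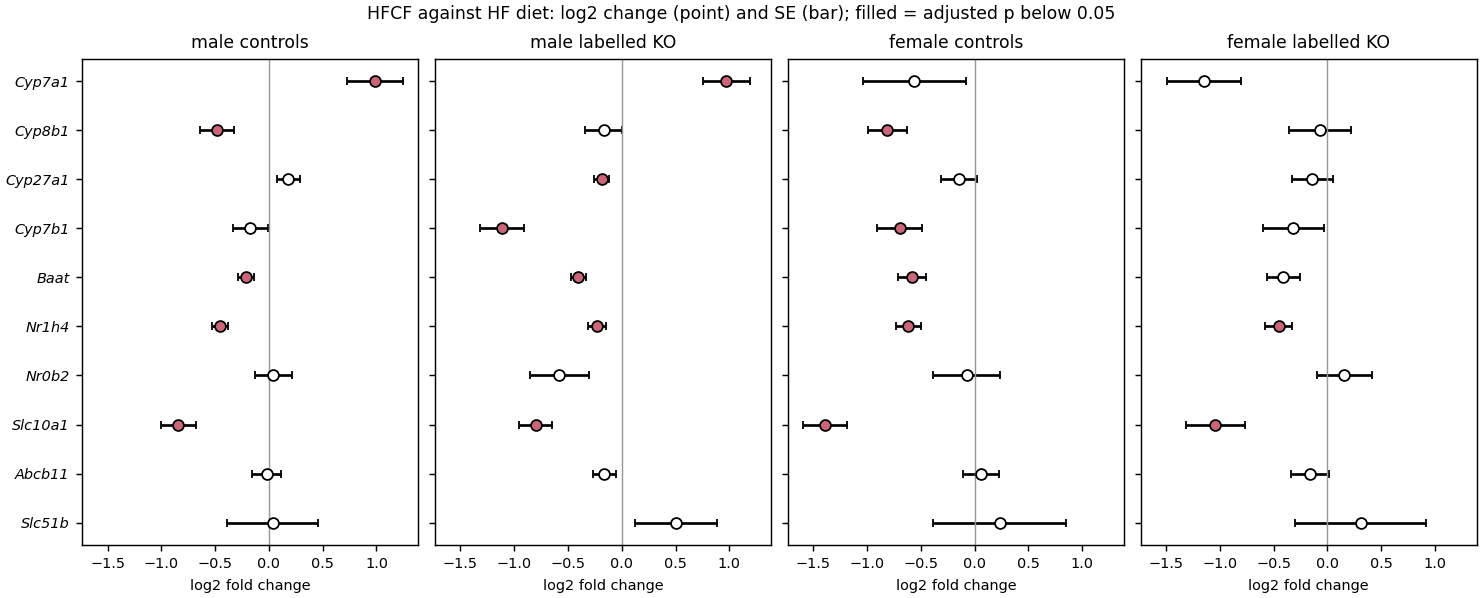
Log2 fold change (horizontal axis) of each gene on the HFCF diet against the HF diet, with its SE as a bar, in male and female controls and labelled knockouts; filled points had an adjusted p below 0.05. Slc10a1 and Nr1h4 lie left of 0 and are filled in all 4 panels, and Cyp7a1 lies right of 0 in males and left of 0 in females.

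Markers of other cells also moved with this diet. Of all genes, 22.3% were called in male controls, 41.7% in male labelled knockouts, 30.8% in female controls and 14.5% in female labelled knockouts. No test compared the markers with these shares. All 6 cholangiocyte markers tested were called higher on HFCF in 3 comparisons and 5 of 5 in female labelled knockouts, and 2 to 4 of 5 macrophage markers were called higher. Stellate cell markers were called higher for 3 and 4 of 5 in male controls and labelled knockouts, and for 1 and 4 of 5 in the females. In female controls the cholangiocyte sum was 43.8 to 277 CPM on HF and 302 to 551 CPM on HFCF. Hepatocyte markers were called lower for 3, 5, 4 and 0 of 6, and their sums in male controls were 59000 to 82471 CPM on HF and 37143 to 60025 CPM on HFCF. Their part in the fall of Slc10a1, Nr1h4 and Baat was not tested. The controls and labelled knockouts on a diet are each used in several of these comparisons, which are therefore not independent of one another.

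**Figure D4:**
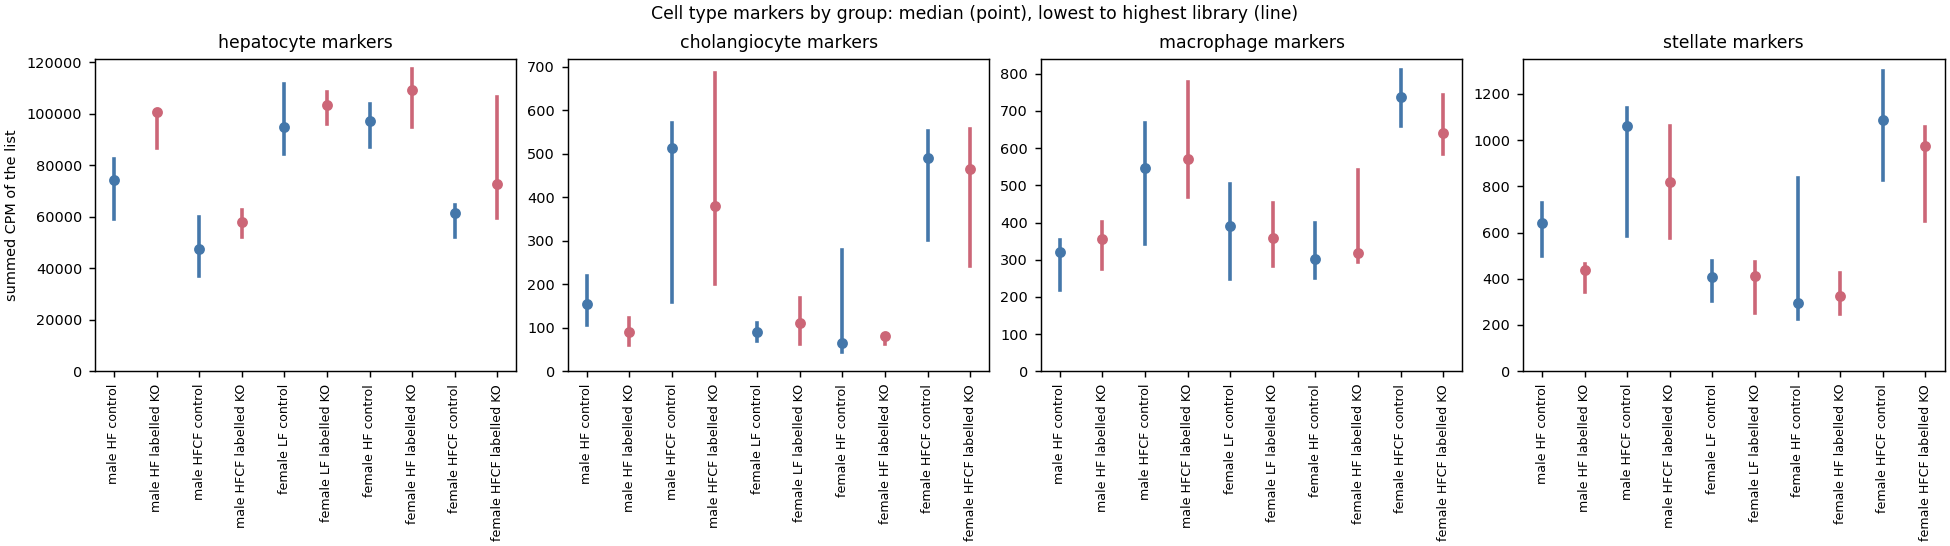
Summed CPM of the marker genes of 4 cell types (vertical axis from 0) in each group, with the median as a point and the lowest to highest library as a line; blue is control and red labelled knockout. Hepatocyte sums are lower in both male HFCF groups (37143 to 62590 CPM) than in HF labelled-knockout males (86558 to 101520 CPM), and cholangiocyte sums are higher on HFCF than on LF in females.

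From LF to HF, females showed 0 calls among the members by edgeR. The background was 0.696% of 14216 genes in controls and 0.155% of 14214 in labelled knockouts. By edgeR 5 and 3 members had an unadjusted p under 0.05, as did 2314 and 1902 of all genes. The DESeq2 Wald test called 1 in each, Abcb11 in controls and Cyp7b1 in labelled knockouts, as did the authors' deposited table. Abcb11 in controls measured 674, 908, 634 and 693 CPM on LF and 328, 424, 469 and 575 CPM on HF. All 4 HF livers lay below all 4 LF livers, with an estimate of -0.70 (SE 0.18) and an adjusted p of 0.102. Cyp7a1 had estimates of 1.18 (SE 0.51, adjusted p 0.291) in controls and 1.42 (SE 0.47, adjusted p 0.217) in labelled knockouts. Without HF control replicate 1, Cyp7b1 was called in controls (0.74, against 0.56 with it).

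HFCF against LF in females gave lower Slc10a1 with either label, and lower Abcb11 and Baat in controls. These were 3 members called in controls, where 35.2% of 14755 genes were, and 1 in labelled knockouts, where 12.0% of 14614 genes were. Slc10a1 in controls measured 429, 797, 773 and 914 CPM on LF and 279, 219, 349 and 199 CPM on HFCF, without overlap (-1.49, SE 0.24, adjusted p 0.00168). In labelled knockouts it measured 858, 936, 968 and 720 CPM on LF and 554, 254, 409 and 217 CPM on HFCF, without overlap (-1.27, SE 0.26, adjusted p 0.0104; -1.57 without HFCF replicate 1). Abcb11 in controls fell from the LF values above to 486, 362, 498 and 495 CPM (-0.68, SE 0.15, adjusted p 0.00726) and did not overlap. Baat fell from 199, 237, 219 and 209 to 145, 127, 181 and 142 CPM (-0.55, SE 0.12, adjusted p 0.00629), also without overlap. These 4 calls held in all 8 fits that left out 1 library. With the replicate number as a block, the calls of Abcb11 (-0.74) and Baat (-0.57) in controls were lost. Hepatocyte markers were called lower in 5 of 6 and cholangiocyte markers higher in 6 of 6, macrophage in 4 of 5 and stellate in 5 of 5 on HFCF against LF in female controls. In labelled knockouts these counts were 1 of 6, 5 of 5, 4 of 5 and 3 of 5, and their part in the changes was not tested. Calls of Cyp8b1 (0.91, without LF replicate 3), Cyp27a1 (-0.46, without HFCF replicate 3) and Nr1h4 (-0.45 and -0.41, without LF replicate 1 or HFCF replicate 3) were gained in controls, and of Abcb11 (-0.44, without HFCF replicate 1) in labelled knockouts.

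Between the sexes, Cyp7a1 and Slc10a1 were lower and Cyp7b1 higher in HF control males than in HF control females. Those 3 members were called where 18.1% of 14492 genes were. For Cyp7a1 every male liver (46.2, 82.2 and 111 CPM) lay below every female liver (226, 402, 383 and 474 CPM), a difference of -2.23 (SE 0.25, adjusted p 0.000208). For Cyp7b1 every male liver (34.8, 37.0 and 53.2 CPM) lay above every female liver (13.9, 26.6, 24.7 and 25.6 CPM), a difference of 0.83 (SE 0.18, adjusted p 0.00801). For Slc10a1 the males (343, 412 and 505 CPM) lay below the females (509, 796, 675 and 812 CPM) by -0.73 (SE 0.14, adjusted p 0.00411). These calls held in all 10 fits that left out 1 library. Without female replicate 1, Nr1h4 (-0.19) and Baat (-0.21) were called as well, for 5 in all.

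On HFCF the difference of Cyp7b1 alone was called, where 2.63% of 15054 genes were. Males measured 28.3, 31.6 and 57.7 CPM and females 12.7, 12.6, 17.9 and 11.8 CPM, without overlap (1.37, SE 0.21, adjusted p 0.0034; 1.18 without male replicate 1). Cyp7a1 gave -0.68 (SE 0.42, adjusted p 0.5) and Slc10a1 -0.18 (SE 0.22, adjusted p 0.781) there. Whether these differences belong to sex or to cohort cannot be told apart.

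A wider list of 51 genes of the pathway, with 16 for synthesis and conjugation, 14 for transport, 15 regulators and 6 for detoxification, was counted in the same tests. In HF males 45 were tested, of which 16 were higher and 7 lower in labelled knockouts; of all 14041 genes 18.5% were called, 1204 higher and 1387 lower. These counts are descriptions, and no test compared the list with other genes. The higher genes included Slco1a1, an organic anion uptake transporter, Sult2a8, a bile acid sulfotransferase, Cyp2c70, which makes muricholic acids, and Akr1d1, a reductase of the bile acid ring system. Cyp2c70 measured 361 ± 59.6 against 164 ± 24.4 CPM (SD, n = 6 each; 1.13, adjusted p 9.16e-06). Akr1d1 measured 279 ± 26.5 against 158 ± 24.0 CPM (0.81, adjusted p 3.4e-05). Slco1a1 measured 26.5 to 581 CPM in labelled knockouts and 11.3 to 25.0 CPM in controls. Its difference of 3.11 (adjusted p 0.00399) was 1.71 without replicate 6, and the next highest library had 87.3 CPM.

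Of 12 regulators tested 7 were called higher and 1 lower there, where 18.5% of all 14041 genes were called, 1204 higher and 1387 lower. The higher ones were Fgfr4, Nr5a2, Klb, Mafg, Rxra, Nr1h3 and Nr1i3, and Nr1i2 was the lower one. They were named after their values were seen. Fgfr4 and Klb form the receptor for the gut hormone that represses Cyp7a1, and Nr5a2 encodes a receptor that activates Cyp7a1. The part of any regulator in the change of Cyp7a1 was not tested. The lower genes with the largest change were Cyp3a11, a hydroxylase of toxic bile acids, Abcc3 and Abcc4, which export bile acids across the blood-facing membrane, and Cyp46a1, a cholesterol hydroxylase. Abcc3 measured 274 ± 41.2 against 499 ± 39.3 CPM in controls (SD, n = 6 each; -0.87, adjusted p 1.83e-05), and Cyp3a11 gave -0.97 (adjusted p 0.000654). Abcc4 gave -0.83 (adjusted p 0.0066), and Cyp46a1 -0.60 (adjusted p 0.0467), a call held in 4 of 12 fits that left out 1 library.

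In HFCF males 44 of the wider list were tested, and 3 were higher and 2 lower in labelled knockouts, where 2.21% of 14685 genes were called. Akr1d1 (1.12, adjusted p 0.00958), Slco1a4 (0.74, adjusted p 0.0274) and Klb (0.46, adjusted p 0.0168) were higher; the Slco1a4 call was kept in 6 of 12 fits with 1 library removed. Abcc3 (-0.82, adjusted p 0.000185) and Cyp3a11 (-0.64, adjusted p 0.00921) were lower. In females on LF, HF and HFCF, 0 of 45 tested were called by edgeR between labelled knockouts and controls. An unadjusted p under 0.05 by edgeR was reached by 2, 7 and 10 of them. Of all genes, 355 of 14285, 1135 of 14128 and 1340 of 14980 reached it. From LF to HF in females 0 of 45 were called with either label. There 11 and 15 had an unadjusted p under 0.05 by edgeR. Of all genes, 2314 of 14216 in controls and 1902 of 14214 in labelled knockouts did.

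On HFCF against HF, the wider list had 3 higher and 15 lower genes in male controls, 3 and 24 in male labelled knockouts, 3 and 23 in female controls, and 3 and 11 in female labelled knockouts. Of all genes, 22.3%, 41.7%, 30.8% and 14.5% were called in that order, with 1877 higher and 1348 lower, 3095 and 2867, 2490 and 2036, and 1237 and 881. Cyp3a11 and Abcc4 were called higher in all 4 comparisons, although in female labelled knockouts the Abcc4 call (1.04) was kept in 3 of 8 fits with 1 library removed. Cyp3a11 measured 2444 ± 280 CPM on HFCF and 1567 ± 239 CPM on HF in male controls (SD, n = 6 each; 0.65, adjusted p 0.00162). The other higher gene of each comparison was Abcg5, a sterol exporter, in male controls (0.61), Abcb4, the phospholipid exporter of bile, in male labelled knockouts (0.24), Atp8b1 in female controls (0.37, kept in 3 of 8 fits) and Ephx1, an epoxide hydrolase, in female labelled knockouts (0.79).

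Nr1i3, the nuclear receptor CAR, was called lower in all 4, by -0.97, -0.82, -1.35 and -1.47 in that order. The bile acid sulfotransferase Sult2a1 had the largest decrease in female controls, from 1.16 to 513 CPM on HF to 1.61 to 10.9 CPM on HFCF. Those ranges overlapped, and its estimate of -5.35 (adjusted p 0.0165) was kept in 6 of 8 fits with 1 library removed. Sult2a8 was lower by -2.40 in female controls, -1.25 in male labelled knockouts and -0.95 in male controls, the last kept in 3 of 12 fits. Cyp46a1 was lower in both comparisons of males (-1.37 in controls and -1.27 in labelled knockouts), and Akr1d1 in male controls (-0.80). Slco1a1 in male labelled knockouts gave -1.86, a call kept in 7 of 12 fits, with estimates from -2.08 to -0.46. In female controls Cyp39a1, an oxysterol hydroxylase, measured 24.4 ± 3.61 CPM on HFCF and 54.1 ± 16.5 CPM on HF (SD, n = 4 each; -1.12, adjusted p 0.00774). In female labelled knockouts Cyp39a1 (-0.94), Slco1a4 (-0.75, kept in 3 of 8 fits) and Slc10a5 (-0.73, kept in 6 of 8) were lower.

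On HFCF against LF, female controls had 4 higher and 20 lower genes of 45, where 35.2% of all genes were called, 2721 higher and 2478 lower. Higher were Abcc4 (1.43), Ephx1 (0.97), Cyp3a11 (0.77) and Abcc3 (0.42, kept in 2 of 8 fits with 1 library removed). Sult2a1 measured 179 to 238 CPM on LF and 1.61 to 10.9 CPM on HFCF, without overlap (-5.31, adjusted p 0.000244). Sult2a8 (-1.92), Cyp39a1 (-1.15) and Cyp2c70 (-1.01, kept in 5 of 8) were the next lower genes. Female labelled knockouts had 3 higher and 4 lower genes of 45, where 12.0% of all genes were called, 1207 higher and 547 lower. Slc10a2, the apical bile acid transporter, rose from 4.41 to 12.4 CPM on LF to 24.2 to 57.8 CPM on HFCF (2.47, adjusted p 0.0023), without overlap. Ephx1 (1.38) and Cyp3a11 (0.96) were also higher, and Cyp39a1 (-1.25), Nr1i3 (-1.10), Foxa2 (-0.81, kept in 6 of 8) and Nr1i2 (-0.61) were lower.

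Between HF control males and females, 4 of 46 list genes were higher and 16 lower in males, where 18.1% of all genes were called, 1235 higher and 1389 lower. Sult2a1 had 4 reads in all over the 6 males, while females measured 1.16 to 513 CPM. Slco1a1 (2.87), Slc10a2 (1.75), Scp2 (0.51) and Atp8b1 (0.28, kept in 4 of 10 fits) were higher in males, and Nr1i3 (-1.39), Slco1a4 (-1.25) and Akr1d1 (158 against 319 CPM) lower. On HFCF 1 was higher and 4 were lower of 46, where 2.63% of all genes were called, 195 higher and 201 lower. Slco1a1 was the higher gene (2.92, kept in 7 of 10 fits). Sult2a1, with 1 read over the 6 males against 1.61 to 10.9 CPM in females, Abcc4 (-1.72), Slco1a4 (-0.91) and Cyp46a1 (-0.88, kept in 6 of 10) were lower.

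Genes whose group pattern was most like that of a member were named by the root mean square difference of centred log2 group means over the 10 groups, searched in 12321 genes. For Slc10a1 they were Asl (0.091), Hgfac (0.15) and Serpina1d (0.16). For Cyp7b1 they were Ttc39c (0.21), C8a (0.25) and Nox4 (0.27), and for Cyp8b1 Pdxk (0.18), Col27a1 (0.18) and Enpp2 (0.21). Cyp7a1 had no near match: the closest, Chrm1, Sptb and Tnfaip8l3, differed by 0.46, 0.48 and 0.49.

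The authors' deposited table called the same members in the labelled-knockout comparison of HF males (7 of 7), and in HFCF against HF for male controls (5 of 5), male labelled knockouts (6 of 6) and female controls (5 of 5). In HFCF males the authors' deposited table also called Cyp7a1.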

How the data were processed

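RNA-seq counts of 48 whole-liver libraries were used. Per the labels, RNA was extracted with Trizol, and libraries were not strand specific. The submitters' processing notes name STAR 2.6.1, HTSeq 0.6.1, DESeq2, GRCm38 and mm10, without their roles. The 11 deposited tables hold raw read counts per gene (whole numbers) and FPKM values, that is counts per gene length and library size, both per the file headers. They also hold the authors' log2 fold changes, p-values and adjusted p-values per comparison, read here for comparison. The tables were joined by gene after a comparison of libraries that occur in several of them, where 0 of 1341082 values differed; no sample column was left unassigned.

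CPM values were scaled by TMM factors over all 48 libraries with edgeR 4.0.16 (R 4.3.3). Each comparison was fitted to its own groups with edgeR's quasi-likelihood test after filterByExpr, with p-values adjusted by Benjamini-Hochberg over all genes tested and calls made below 0.05. Log2 changes are the named group minus its reference. The fit was run on simulated counts that had the same dispersion (spread between mice) for all genes, with known changes in well-counted genes only. Spread that differs between genes, as it does among the members, was not simulated. Alternatives were DESeq2 1.42.0 size factors and its Wald test, no filter, at least 10 counts in every library, a replicate block, all groups together in 1 fit, and each library left out. The members, the wider list and the markers were chosen with earlier results of these data known. All members are named, with up to 4 higher and 4 lower genes of the wider list per comparison by absolute log2 change among called genes; regulators that the rule did not name were added after their values were seen. Patterns were compared for members whose log2 group means spanned at least 1, against genes of at least 1 CPM on average, with a pseudocount of 0.5 CPM. Motifs were exact matches on either strand in the RefSeq promoter windows.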

Additional observations from a re-analysis of the deposited data

Results flagged for a closer look

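Of 100 groups screened (10 genes in 10 groups), 11 held a highest or lowest library that lay far from the rest of its group. Chance alone gives about 1 in 20 where groups are independent. The 10 genes share their libraries, so the count of 11 cannot be set against that rate. Replicate 1 of the HFCF control males was the high library for 4 genes: Cyp27a1 (566 CPM), Cyp7b1 (57.7 CPM), Slc10a1 (380 CPM) and Abcb11 (649 CPM). Replicate 6 of the HFCF labelled-knockout males was high for Slc10a1 (509.8 CPM). In HFCF labelled-knockout females, replicate 1 was high for Cyp7b1 (28.9 CPM) and Baat (239 CPM). In HF control females, replicate 1 was low for Cyp7b1 (13.9 CPM). These 4 libraries are among those that stood apart in cholangiocyte and stellate cell markers. Replicate 3 of the HFCF labelled-knockout males, also apart in these markers (685 and 1063 CPM), held none of the 11. The remaining 3 were Cyp7b1 in HFCF control females, replicate 3 (17.9 CPM, high), Nr1h4 in LF control females, replicate 1 (106 CPM, low), and Abcb11 in HFCF control females, replicate 2 (362 CPM, low).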

How the results depend on the processing

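No called change of a member reversed under any alternative. Of 33 called member results, DESeq2 size factors and the DESeq2 Wald test each kept 33 of 33, a minimum of 10 counts in every library 31, no filter 30, and all groups of the sex in 1 fit 22 of 29. DESeq2 size factors moved the median of all genes by at most 0.0258 log2. Counts of called members that moved by over 1.5 times were these. In labelled-knockout against control, HF males gave 3 when all male groups shared 1 fit, against 7; HFCF males gave 2 by the Wald test, 1 with no filter and 2 in 1 fit of all male groups, against 0. HF against LF gave 1 by the Wald test in female controls and in female labelled knockouts, and 1 in controls in 1 fit of all female groups, against 0. HFCF against LF in female controls gave 5 by the Wald test, against 3. The interaction of label and diet in males gave 1 by the Wald test, against 0. The smaller moves, by 1 or 2 members, included HFCF against HF in female labelled knockouts (3 by the Wald test and in 1 fit, against 2) and in male labelled knockouts (4 with at least 10 counts, against 6), and male against female on HF (4 by the Wald test, against 3). The cause was not tested.

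Replicate numbers did not pair the samples in a regular way. Correlations of same-numbered deviations were not over 0.1 for every pair in any comparison, and at most 2 pairs of a comparison correlated best with their own number. The highest single correlation was 0.435, between labelled knockouts and controls of HF females. Pairing by animal number was not tested. With the replicate number as a block, HFCF against HF gave 0 in female controls and 0 in female labelled knockouts, against 5 and 2, and HFCF against LF gave 1 in female controls, against 3. The 5 lost in female controls were Slc10a1 (-1.21), Cyp8b1 (-0.77), Baat (-0.56), Cyp7b1 (-0.55) and Nr1h4 (-0.54). It kept 22 of the 33 calls. For labelled knockout against control in HF males it gave 7, as without the block.

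With each library left out in turn, 277 of 344 fits kept the call. Counts of called members ran from 4 to 7 for labelled knockout against control in HF males, from 0 to 3 in HFCF males, and stayed 0 in females on each diet. For HFCF against HF they ran from 3 to 6 in male controls, 4 to 6 in male labelled knockouts, 4 to 5 in female controls and 0 to 4 in female labelled knockouts. For HFCF against LF they ran from 3 to 5 in controls and 1 to 2 in labelled knockouts, and for HF against LF from 0 to 1 in controls. For male against female on HF they ran from 3 to 5. The interaction of diet and sex in controls ran from 0 to 2, and that of label and sex on HF from 0 to 1. With 147 reads of Nr0b2 in its shallowest library and 1 of Slc51b, depth limits Slc51b foremost.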
